A study of Mus musculus with 12 samples.

Results

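The aminoacyl-tRNA synthetase genes were described in the lungs of newborn C57/Bl6 mice. The members were the 36 synthetase rows of a table of 23478 genes: 20 cytosolic and 16 mitochondrial, the mitochondrial ones being those whose symbols end in 2. All 36 passed the filter on low counts, as did 15761 genes in all. Mice were injected into the peritoneum on day 0 with 25 mg/kg aurothioglucose (ATG), a gold compound known as an inhibitor of thioredoxin reductase, or with saline, and were then kept in over 95% oxygen for 72 h or in room air. The 4 groups were ATG with hyperoxia, saline with hyperoxia, ATG with room air and saline with room air, with 3 samples each; all carried the same strain and were newborn, and RNA came from lungs from which the lavage fluid had been removed. The design asks what hyperoxia does after each injection and whether ATG alters the lung or its answer to oxygen.

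Aminoacyl-tRNA synthetases join each amino acid to its own transfer RNAs, the step that gives the genetic code its meaning in protein synthesis. Cytosol and mitochondria mostly use separate enzymes, and all are encoded in the nucleus. Several cytosolic synthetases sit on scaffold proteins in the multisynthetase complex, and the others act free of it. Cytosolic synthetase genes are known targets of ATF4, the transcription factor made when eIF2 kinases slow translation, and GCN2 (gene Eif2ak4) is the kinase that senses uncharged transfer RNA. In the lung, surfactant and matrix synthesis after birth rest on the same charging step.

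Library totals ranged from 18009965 to 20486735 counts in ATG hyperoxia, 16490223 to 19267023 in saline hyperoxia, 14589812 to 17368904 in ATG room air and 14331749 to 15916703 in saline room air. Summed lung markers (9 of 9 present) were at 20008 to 29092 CPM (counts scaled to library size) in every library, so lung markers were high under the lung label. Markers of neighbouring tissues differed between libraries. Summed cardiomyocyte markers (10 of 10 present, none at 0) ran from 441.5 to 7169 CPM in ATG hyperoxia, 479.8 to 3269 in saline hyperoxia, 590.0 to 1015 in ATG room air and 700.8 to 977.2 in saline room air, the highest in each hyperoxia group being replicate 2. Skeletal muscle markers (7 of 7 present) reached 335.1 CPM in saline hyperoxia 1 and at most 61.7 CPM elsewhere. Thymocyte markers (6 of 6) lay between 1.35 and 12.4 CPM, apart from 2 saline hyperoxia libraries at 21.7 and 61.4 CPM. Erythroid markers (5 of 5 in the table, with the globin gene Hbb-bt at 0 in every library) were at 557.5, 56.1 and 129.4 CPM in ATG hyperoxia, 109.5 to 206.8 in saline hyperoxia, 199.1 to 460.1 in ATG room air and 199.6 to 218.1 in saline room air. ATG hyperoxia 1, the highest of these, also had the highest Sars, Eprs and Aars; without it the same 4 synthetase genes were called after ATG, with Sars at 0.89 and Eprs at 0.28 (edgeR adjusted p = 0.00028 and 0.0452). Calls of hyperoxia against room air were also made after each injection without the heart-rich pair (ATG hyperoxia 2 and saline hyperoxia 2) and without a trio that adds the muscle-rich saline hyperoxia 1, and a call of a named gene that was lost in either is marked below. By sex-linked genes, 2 of 3 ATG hyperoxia, 1 of 3 saline hyperoxia, 1 of 3 ATG room air and 3 of 3 saline room air libraries were male. In whole tissue, fewer cells of a type and less RNA per cell cannot be told apart. The labels do not say which samples shared a litter, so p-values measure the spread between these samples.

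The cytosolic genes were the more abundant class. Per kilobase of the longest coding transcript, their median level over the 12 libraries was 16.5 CPM per kb, from 4.28 for Cars, the cysteinyl enzyme, to 51.6 for Nars, the asparaginyl enzyme. The mitochondrial median was 3.62 CPM per kb, from 0.847 for Mars2, the methionyl enzyme, to 2426 for Lars2, the leucyl enzyme. The transcript length used for Mars2, 11294 bases, is longer than its RefSeq gene span (chromosome 1, 55237177 to 55240058). Its value per kb, and so its place as the lowest, is uncertain. Without Lars2 the mitochondrial maximum was 13.2 CPM per kb, for the isoleucyl enzyme gene Iars2. The depth behind the tests differed accordingly. A cytosolic gene had a mean count per library of 869.8 in the median (234.2 to 3098) and a mitochondrial gene 187.4 (48.3 to 158608), and 3 of 20 cytosolic and 14 of 16 mitochondrial genes averaged under 500 counts. The median standard error (SE) of the log2 fold change was 0.10 for cytosolic, 0.22 for mitochondrial and 0.17 for all tested genes in hyperoxia against room air after saline.

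**Figure D1:**
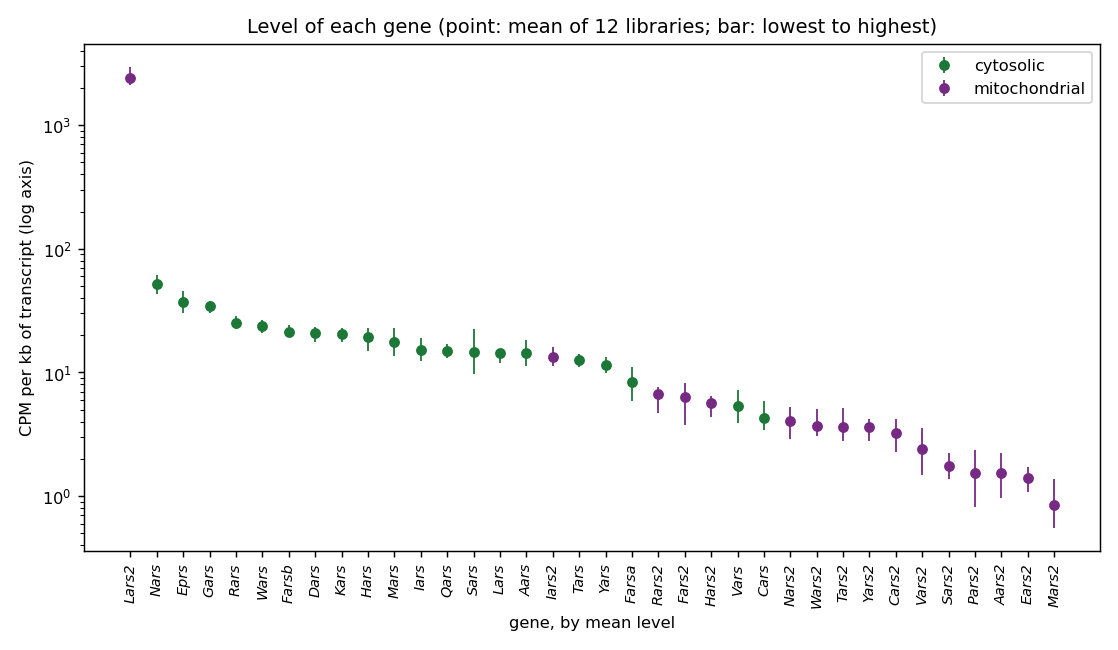
Level of each of the 36 genes in CPM per kb of transcript on a log axis, ordered from high to low, with points for the mean of 12 libraries and bars from the lowest to the highest library; green is cytosolic and purple mitochondrial. Lars2 stands at 2426 CPM per kb, and the other mitochondrial genes lie mostly below the cytosolic ones.

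In hyperoxia a small group of cytosolic genes rose, led by Sars. After ATG 4 of 20 cytosolic genes rose (Sars, Mars, Eprs and Iars), where 5.41% of all tested genes did, and none fell, where 6.25% did. After saline 4 of 20 rose (Sars, Mars, Eprs and Nars), where 4.70% of all tested genes did, and none fell, where 4.50% did. Without the heart-rich pair 5 and 4 cytosolic genes were called after ATG and saline. Leaving out the trio keeps a single saline hyperoxia sample, so call counts from that fit are not set beside these. Without the pair, 710 and 792 of 15911 tested genes rose after ATG and saline, and 737 and 744 fell. With all 12 libraries, none of the 16 mitochondrial genes passed after either injection. An unadjusted p under 0.05 was found by edgeR for 5 of them after ATG and 3 after saline. Of all 15761 tested genes, 3961 and 3582 had such a p. DESeq2 called 1 after ATG (Aars2) and 1 after saline (Iars2), and limma-voom 1 after ATG (Aars2) and 0 after saline. A count of 0 of 16 called lies near the shares of all tested genes called and is not a result about the mitochondrial class. Calls are from edgeR's quasi-likelihood test with Benjamini-Hochberg adjustment over 15761 genes and a threshold of 0.05. The 2 hyperoxia comparisons use separate samples, with a spread estimated over all 12 libraries.

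Sars charges serine onto its transfer RNAs and also onto that for selenocysteine, and lies on chromosome 3 (108424864 to 108445259 in GRCm38.p6). Its levels were 79.9, 68.0 and 65.5 CPM in ATG hyperoxia and 57.2, 61.9 and 65.7 CPM in saline hyperoxia, against 36.6, 36.7 and 35.8 CPM in ATG room air and 35.0, 38.4 and 40.3 CPM in saline room air. All 6 hyperoxia libraries stood well above all 6 room air libraries. By edgeR, Sars rose by 0.97 ± 0.10 (log2, SE; adjusted p = 4.98e-05) after ATG and by 0.70 ± 0.10 (adjusted p = 0.000664) after saline. Without the heart-rich pair the log2 fold changes after ATG and saline were 1.01 and 0.71, and without the trio 1.02 and 0.81. The difference between the 2 responses, 0.27 (95% interval -0.03 to 0.57), had an adjusted p of 1 in edgeR's interaction test.

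Mars, which charges methionine onto both initiator and elongator transfer RNAs, lies on chromosome 10 (127296221 to 127311786). It had 59.4, 60.6 and 67.2 CPM in ATG hyperoxia and 60.1, 58.4 and 56.3 CPM in saline hyperoxia, against 47.2, 41.5 and 47.4 CPM in ATG room air and 40.5, 42.4 and 46.8 CPM in saline room air. Again no hyperoxia library fell to the level of any room air library. Mars rose by 0.46 ± 0.09 (log2, SE; edgeR adjusted p = 0.00483) after ATG and by 0.43 ± 0.09 (edgeR adjusted p = 0.00994) after saline. Without the heart-rich pair it was called after ATG and saline (0.50 and 0.44). After saline the call was lost without the trio of libraries (0.39, edgeR adjusted p = 0.147), which leaves a single saline hyperoxia sample, assumed to vary like the other groups. The end of Mars overlaps Ddit3, the stress factor CHOP, on the opposite strand over 29 windows of 40 bases (0.834% of those in Mars), and Ddit3 rose by 0.99 after ATG and by 1.57 after saline (edgeR adjusted p = 0.0175 and 0.00171). Whether reads were counted by strand is not given in the sources used here, so reads from that stretch cannot be assigned, and their part in the Mars result was not tested.

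Eprs encodes the joined glutamyl and prolyl enzyme, the largest synthetase of the complex, on chromosome 1 (185361417 to 185428360). Its levels were 222.5, 201.3 and 203.7 CPM in ATG hyperoxia and 192.2, 194.8 and 203.1 CPM in saline hyperoxia, against 162.9, 163.7 and 179.6 CPM in ATG room air and 150.9, 149.2 and 158.0 CPM in saline room air. The hyperoxia and room air libraries did not overlap, and the lowest group was saline room air. Eprs rose by 0.31 ± 0.07 (log2, SE; edgeR adjusted p = 0.0113) after ATG and by 0.37 ± 0.07 (edgeR adjusted p = 0.00602) after saline. With only the 6 ATG libraries in the fit, the ATG call was lost (0.32, edgeR adjusted p = 0.0544). Both calls held without the heart-rich pair (0.35 and 0.38) and without the trio (0.36 and 0.43).

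Iars, the isoleucyl enzyme of the complex, lies on chromosome 13 (49682130 to 49734267). It had 72.3, 72.4 and 84.7 CPM in ATG hyperoxia and 72.3, 73.7 and 68.9 CPM in saline hyperoxia, against 64.5, 55.1 and 59.2 CPM in ATG room air and 58.9, 63.4 and 66.6 CPM in saline room air. The hyperoxia libraries were all above the room air libraries, with the closest pair in the saline groups. Iars rose by 0.36 ± 0.09 (log2, SE; edgeR adjusted p = 0.0192) after ATG and was at 0.19 ± 0.09 (edgeR adjusted p = 0.246) after saline; the interaction, 0.17 (95% interval -0.10 to 0.45), did not pass. The ATG call was lost without ATG hyperoxia 3 (0.29, edgeR adjusted p = 0.067), without ATG room air 3 (0.37, edgeR adjusted p = 0.0531) and in the fit of 6 libraries (0.37, edgeR adjusted p = 0.0572), and was kept without the heart-rich pair (0.41) and the trio (0.42). Iars shares 557 windows of 40 bases (10.6%) with the processed pseudogene Gm4849, so its level is uncertain.

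Nars, the asparaginyl enzyme, uses the product of the ATF4 target Asns. Its levels were 160.6, 144.4 and 167.5 CPM in ATG hyperoxia and 149.4, 145.3 and 154.1 CPM in saline hyperoxia, against 137.1, 135.4 and 139.8 CPM in ATG room air and 126.8, 121.8 and 118.4 CPM in saline room air. Hyperoxia libraries were above room air libraries throughout, and the ATG room air libraries were above the saline room air ones. Nars rose by 0.29 ± 0.07 (log2, SE; edgeR adjusted p = 0.0214) after saline and was at 0.20 ± 0.07 (edgeR adjusted p = 0.0982) after ATG; the interaction was -0.09 (95% interval -0.31 to 0.13). The saline call was lost without any of saline hyperoxia 1 (0.30), saline hyperoxia 3 (0.27), saline room air 2 (0.29) or saline room air 3 (0.27), without the trio (0.35) and with sex in the model (0.27). After ATG, Nars passed without ATG hyperoxia 2, a heart-rich library (0.27, edgeR adjusted p = 0.0391).

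**Figure D2:**
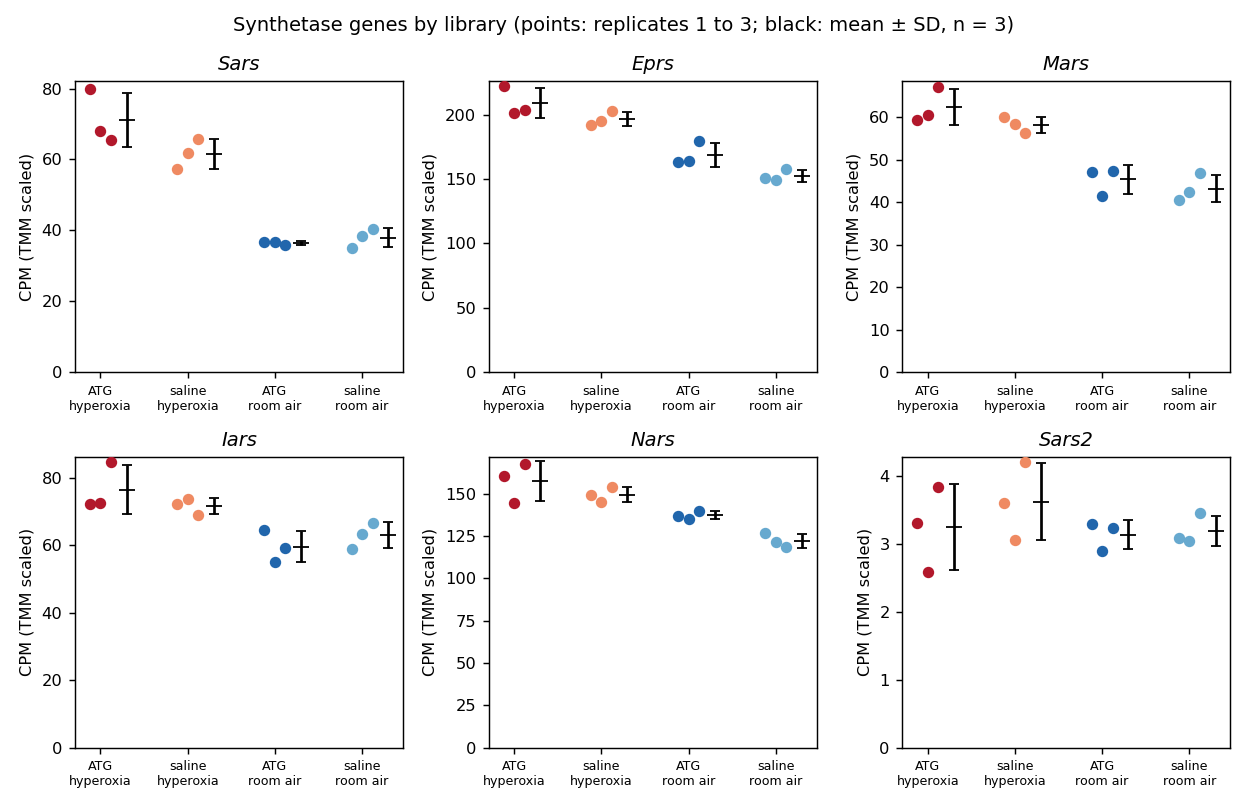
CPM in each library for Sars, Eprs, Mars, Iars and Nars and, for contrast, the mitochondrial seryl gene Sars2, with groups from ATG hyperoxia on the left to saline room air on the right; black marks are mean ± SD (n = 3). Sars shows the widest gap, with 65.5 to 79.9 CPM in ATG hyperoxia and 35.8 to 36.7 CPM in ATG room air, while Sars2 libraries of all groups overlap between 2.58 and 4.20 CPM.

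The other 15 cytosolic genes did not pass in either comparison by edgeR. Their log2 fold changes ran from -0.38 to 0.52 after ATG and from -0.34 to 0.29 after saline. Cars had the highest value among them after ATG, at 0.52 ± 0.17 (SE; edgeR adjusted p = 0.06), and 0.15 ± 0.17 after saline; DESeq2 called it after ATG (adjusted p = 0.0376), as did edgeR without ATG hyperoxia 3. Vars, the valyl enzyme, had the lowest, at -0.38 ± 0.16 after ATG and -0.34 ± 0.16 after saline (edgeR adjusted p = 0.139 and 0.212). Sars, at 0.97 and 0.70, lay above all of them after both injections.

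Some members have roles in both compartments. Gars, the glycyl enzyme of cytosol and mitochondria, had 89.3, 81.2 and 88.7 CPM in ATG hyperoxia and 81.8, 87.4 and 77.3 CPM in saline hyperoxia, against 76.9, 89.4 and 88.8 CPM in ATG room air and 73.1, 72.4 and 75.4 CPM in saline room air. Saline room air was below every other library, but the change was 0.02 ± 0.08 after ATG and 0.16 ± 0.08 after saline (log2, SE; edgeR adjusted p = 0.894 and 0.286). Kars, the lysyl enzyme of both compartments, had 48.9, 49.0 and 47.2 CPM in ATG hyperoxia and 38.3, 42.6 and 40.1 CPM in saline hyperoxia, against 50, 47.9 and 43.2 CPM in ATG room air and 46.7, 44.1 and 42.9 CPM in saline room air. Its saline hyperoxia libraries were the lowest, below all others; hyperoxia gave 0.04 ± 0.09 after ATG and -0.14 ± 0.09 after saline (edgeR adjusted p = 0.831 and 0.378).

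Qars charges glutamine in the cytosol, whereas mitochondria reach glutaminyl transfer RNA by amidation of the product of Ears2. Qars had 38.3, 47.3 and 37.1 CPM in ATG hyperoxia and 42.6, 42.6 and 39.4 CPM in saline hyperoxia, against 36.6, 44.2 and 38.7 CPM in ATG room air and 45.0, 44.5 and 40.9 CPM in saline room air. The groups overlapped, with 0.04 ± 0.11 after ATG and -0.07 ± 0.11 after saline (log2, SE; edgeR adjusted p = 0.877 and 0.78). Wars, the tryptophanyl enzyme and a gene known to be induced by interferon gamma, had 70.7, 75.6 and 64.3 CPM in ATG hyperoxia and 59.0, 63.2 and 69.8 CPM in saline hyperoxia, against 70.4, 64.6 and 60.2 CPM in ATG room air and 74.6, 62.3 and 64.7 CPM in saline room air. Its groups overlapped too, at 0.11 ± 0.10 and -0.07 ± 0.10 (edgeR adjusted p = 0.552 and 0.732). Of 11 tested genes of an interferon gamma list, 1 rose (Tap1, a peptide transporter, at 0.59) and 1 fell after ATG, and 0 rose and 1 fell after saline. Over all tested genes, 5.41% rose and 6.25% fell after ATG, and 4.70% rose and 4.50% fell after saline. Gbp7, a guanylate-binding protein, fell by 0.41 and 0.71 (edgeR adjusted p = 0.038 and 0.00224). Both calls after ATG were lost without the heart-rich pair (Tap1 0.56 and Gbp7 -0.42; edgeR adjusted p = 0.0549 and 0.074) and without the trio (0.57 and -0.41; edgeR adjusted p = 0.055 and 0.0591), whereas Gbp7 after saline passed in both. Ido1, also on that list, had too few counts to be tested.

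Hars and Hars2, the cytosolic and mitochondrial histidyl genes, are neighbours on opposite strands that share 156 windows of 40 bases (6.3% of Hars and 3.61% of Hars2), so reads may be split between them. Hars had 40.7, 38.9 and 38.5 CPM in ATG hyperoxia and 36.9, 29.8 and 44.0 CPM in saline hyperoxia, against 37.9, 41.4 and 45.7 CPM in ATG room air and 39.5, 35.7 and 34.0 CPM in saline room air. Hars2 had 14.6, 17.7 and 19.0 CPM in ATG hyperoxia and 16.9, 19.2 and 20.9 CPM in saline hyperoxia, against 17.0, 20.2 and 19.3 CPM in ATG room air and 21.7, 18.8 and 21.6 CPM in saline room air. Neither separated the groups. After ATG the log2 fold changes were -0.08 ± 0.13 for Hars and -0.14 ± 0.14 for Hars2, and after saline 0.02 ± 0.13 and -0.12 ± 0.14 (SE).

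The mitochondrial genes had medians above those of the cytosolic genes, with wider errors. The median log2 fold change in hyperoxia was 0.13 for cytosolic and 0.19 for mitochondrial genes after ATG, and 0.08 for cytosolic and 0.14 for mitochondrial genes after saline, where the median of all tested genes was 0.00 in both. By the mean the order was the other way, with 0.18 for cytosolic and 0.14 for mitochondrial genes after ATG, and 0.11 and 0.08 after saline, and no difference between the classes was tested. Among the 16, values ran from -0.68 for Pars2, the prolyl enzyme, to 0.76 for Aars2, the alanyl enzyme, after ATG, and from -0.68 for Pars2 to 0.47 for Mars2 after saline. Aars2 was nearest to the threshold after ATG (0.76 ± 0.24, edgeR adjusted p = 0.056), and Iars2 after saline (0.25 ± 0.08, edgeR adjusted p = 0.0641). Of the transcript of Iars2, 22.2% of the 40-base windows overlap Rab3gap2 on the opposite strand, which makes its count uncertain. Pars2 had 2.48, 6.11 and 3.79 CPM in ATG hyperoxia and 2.73, 3.47 and 3.17 CPM in saline hyperoxia, against 6.58, 6.06 and 7.19 CPM in ATG room air and 4.45, 6.33 and 4.21 CPM in saline room air, so that the heart-rich ATG hyperoxia 2 was the only hyperoxia library within the room air range. Without the heart-rich pair, Pars2 fell by 1.05 after ATG (edgeR adjusted p = 0.0414). Wars2, the tryptophanyl enzyme, then rose by 0.57 (edgeR adjusted p = 0.0257). There were then 5 calls in the cytosolic and 2 in the mitochondrial class, where 710 of 15911 tested genes rose and 737 fell. No test over the classes is given for these counts.

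**Figure D3:**
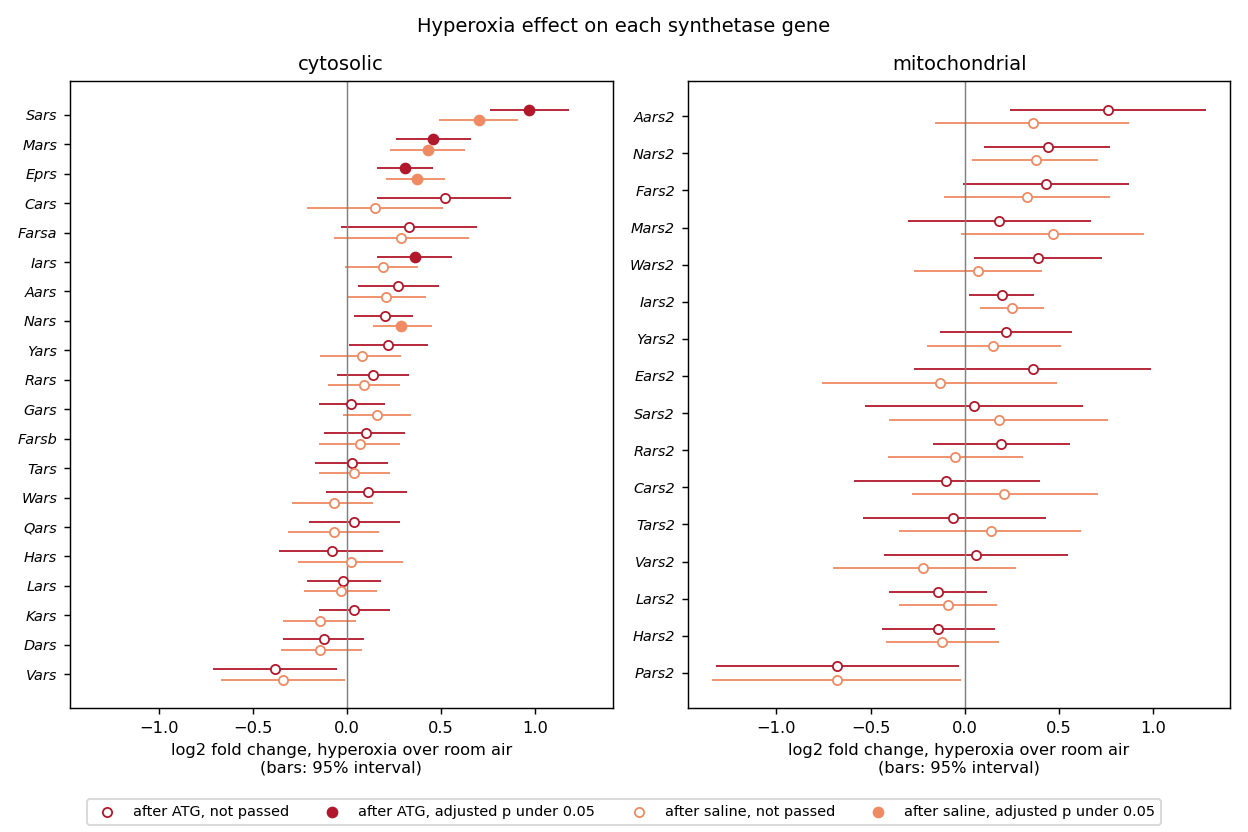
Log2 fold change of hyperoxia over room air for the 20 cytosolic genes (left) and the 16 mitochondrial genes (right), after ATG (dark red, upper of each pair) and after saline (orange, lower), with 95% intervals; filled points passed an adjusted p of 0.05. Filled points belong to Sars, Mars, Eprs, Iars and Nars, and the mitochondrial bars are wider.

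Taking both injections together, a comparison added after seeing the data, gives each gene 6 hyperoxia and 6 room air libraries. By edgeR 6 cytosolic genes rose and 1 fell, and 3 mitochondrial genes rose and 1 fell, where 11.0% of all tested genes rose and 11.3% fell. The genes beyond the 5 described above were chosen after their values were seen. Aars (0.24, edgeR adjusted p = 0.0227), Aars2 (0.56, edgeR adjusted p = 0.0289), Iars2 (0.22, edgeR adjusted p = 0.0105) and Nars2 (0.41, edgeR adjusted p = 0.0158) rose, and Vars (-0.36, edgeR adjusted p = 0.0293) and Pars2 (-0.68, edgeR adjusted p = 0.0347) fell. Aars is uncertain because 13.7% of its 40-base windows lie in Exosc6 on the same strand. All 6 hyperoxia libraries were above all 6 room air libraries in 5 cytosolic genes (Sars, Mars, Eprs, Iars and Nars) and 2 mitochondrial genes (Iars2 and Nars2), and all below in none, where 5.41% of tested genes were above and 5.61% below. No test over the class is given for these shares.

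For 13 amino acids both a cytosolic and a mitochondrial gene were members. The cytosolic gene had the higher log2 fold change in 7 pairs and the lower in 5 after ATG, and the higher in 4 and the lower in 9 after saline. The widest gap was for serine, where Sars exceeded Sars2 by 0.92 after ATG and by 0.52 after saline. Sars2 had 3.31, 2.58 and 3.84 CPM in ATG hyperoxia and 3.60, 3.06 and 4.20 CPM in saline hyperoxia, against 3.29, 2.89 and 3.23 CPM in ATG room air and 3.08, 3.04 and 3.45 CPM in saline room air. Its change was 0.05 (95% interval -0.53 to 0.63) after ATG and 0.18 (-0.40 to 0.76) after saline, and the difference between the genes was not tested. For alanine the order was the other way, with Aars below Aars2 by 0.49 after ATG and by 0.15 after saline. For methionine, Mars and Mars2 were at 0.46 and 0.18 after ATG, and at 0.43 and 0.47 after saline.

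Calls were found both in and outside the multisynthetase complex. Of its 8 synthetases, 3 rose after ATG (Mars, Eprs and Iars) and 2 after saline (Mars and Eprs), while Dars, Kars, Lars, Qars and Rars passed in neither. Of the 12 free cytosolic genes, 1 rose after ATG (Sars) and 2 after saline (Sars and Nars), where 5.41% and 4.70% of all tested genes rose after ATG and saline; counts this small are not a result about either set. The median log2 fold change was 0.09 in the complex and 0.15 outside it after ATG, and 0.03 and 0.11 after saline. None of the 3 scaffold genes passed: Aimp1 was at 0.22 and 0.07, Aimp2 at 0.06 and 0.08, and Eef1e1 (AIMP3) at 0.52 ± 0.20 and 0.62 ± 0.20 (log2, SE) after ATG and saline (edgeR adjusted p = 0.118 and 0.076 for Eef1e1).

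**Figure D4:**
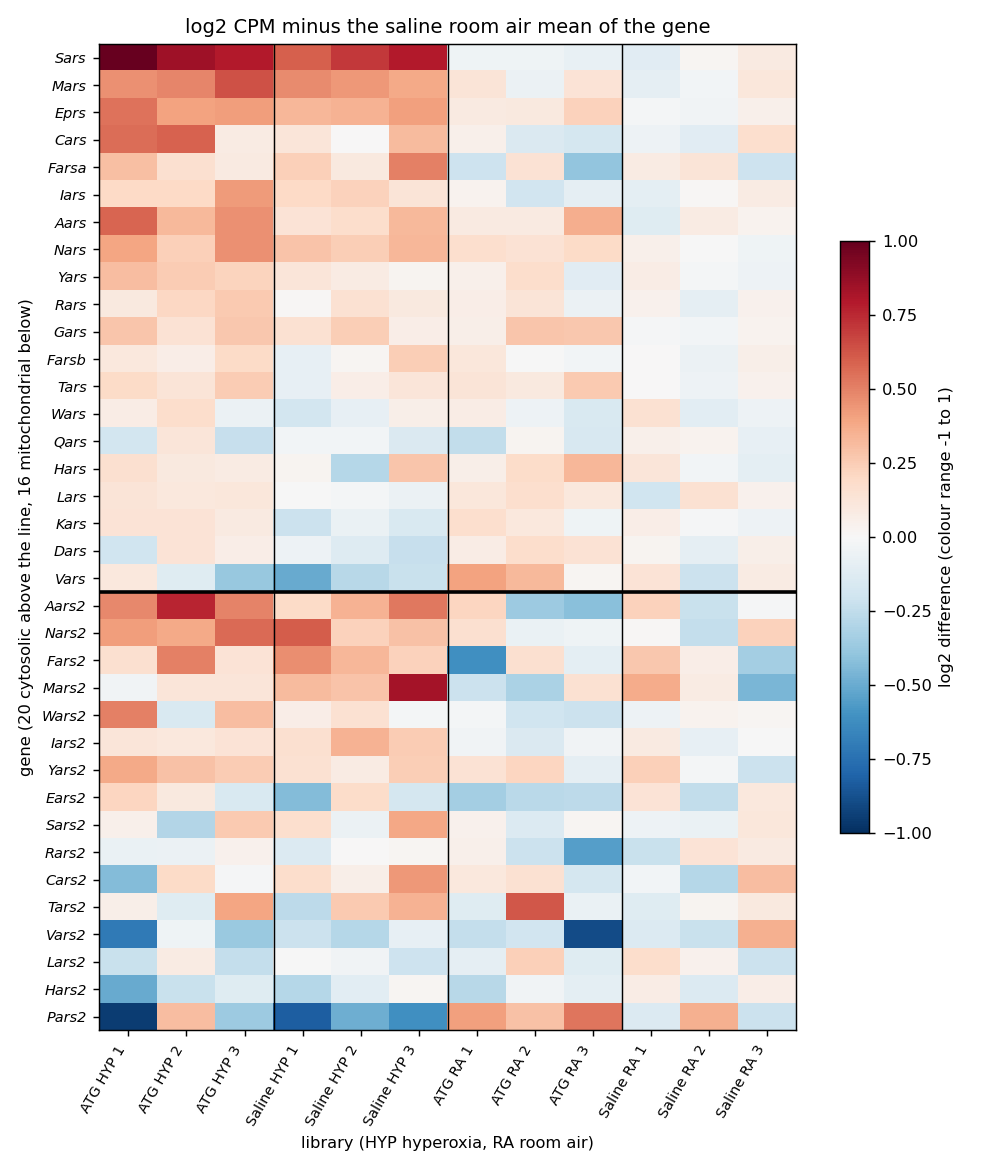
Log2 CPM of each gene minus its saline room air mean, in every library from ATG hyperoxia on the left to saline room air on the right, with colours limited to -1 to 1; the 20 cytosolic genes are above the line and the 16 mitochondrial genes below. The red block in the 6 hyperoxia columns is deepest for Sars. Among the others, Mars, Eprs and the mitochondrial Aars2 and Nars2 are also red in all 6, and Pars2 is blue in 5 of the 6 hyperoxia libraries.

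ATG itself changed no synthetase gene past the threshold. In hyperoxia 0 of 36 passed, in room air 0 of 36, and in the interaction 0 of 36, where 0.00634% of all tested genes (1 gene, Pde4b) rose with ATG in hyperoxia and none changed otherwise. Unadjusted p-values under 0.05 were found by edgeR for 3, 2 and 0 of the 36 members. Of all 15761 tested genes, 897, 949 and 465 had such a p-value. By DESeq2 there were 2, 2 and 0 such members and by limma-voom 3, 2 and 0, and neither of those tools called a member. The 3 in hyperoxia were Kars (0.26 ± 0.09), Aars (0.24 ± 0.10) and Sars (0.21 ± 0.10), and the 2 in room air were Gars (0.21 ± 0.08) and Nars (0.17 ± 0.07; log2, SE), all higher after ATG. The median over the cytosolic genes was 0.12 in hyperoxia and 0.07 in room air, and over the mitochondrial genes -0.03 and -0.10. In 11 of 13 amino acid pairs the cytosolic gene had the higher ATG effect in hyperoxia and in 1 the lower, the remaining pair being equal to 2 decimals, against 8 and 5 in room air.

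Each class was also averaged per library, as log2 CPM minus the saline room air mean of each gene. No test is given for these averages, since the members were chosen with earlier results known. The cytosolic average was 0.27, 0.23 and 0.21 in ATG hyperoxia, 0.08, 0.10 and 0.17 in saline hyperoxia, 0.07, 0.08 and 0.04 in ATG room air, and 0.01, -0.02 and 0.02 in saline room air. Every ATG hyperoxia library was above every other library, and saline room air was below all. The mitochondrial average was -0.03, 0.12 and 0.09 in ATG hyperoxia, 0.01, 0.08 and 0.16 in saline hyperoxia, -0.05, -0.02 and -0.15 in ATG room air, and 0.05, -0.05 and -0.01 in saline room air, where the groups overlapped.

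The median fold change of the ATF4 pathway transcription factors was above that of the synthetases, a difference that was not tested. Of all tested genes, 5.41% rose after ATG and 4.70% after saline. Of 8 ATF4 pathway transcription factors, 6 rose after ATG and 7 after saline, with median log2 fold changes of 1.11 and 1.32; without the heart-rich pair it was 7 and 7, and without the trio 7 and 6. Atf4 averaged 151.5 ± 16.8 CPM in ATG hyperoxia, 118.6 ± 7.06 CPM in saline hyperoxia, 95.8 ± 7.82 CPM in ATG room air and 80.6 ± 6.96 CPM in saline room air (SD, n = 3 each), and rose by 0.66 and 0.56 (edgeR adjusted p = 0.000662 and 0.00296). Not all stood above the synthetases: Sars, at 0.97 and 0.70, was above Atf4, Cebpg (0.30 and 0.32) and Cebpb (-0.09 and 0.00). Cebpg was called after saline and not after ATG. Its saline call was lost without the trio, which leaves a single saline hyperoxia sample. Nupr1, a stress-induced chromatin protein, rose by 2.11 and 1.96, Atf5 by 1.83 and 1.46, and Trib3, a feedback inhibitor of ATF4, by 1.96 and 2.43 after ATG and saline. Among 8 kinase and feedback genes only Impact, an inhibitor of GCN2, rose (0.49 and 0.45), its call after saline being lost without the heart-rich pair (0.42, edgeR adjusted p = 0.0583) and without the trio (0.33, edgeR adjusted p = 0.314), and Eif2ak4 was at -0.09 and 0.06.

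Amino acid supply genes were mixed. Of all tested genes, 5.41% rose and 6.25% fell after ATG, and 4.70% rose and 4.50% fell after saline. Asns, which makes asparagine, averaged 42.1 ± 6.83 CPM in ATG hyperoxia, 33.0 ± 3.42 CPM in saline hyperoxia, 11.4 ± 1.16 CPM in ATG room air and 12.1 ± 1.59 CPM in saline room air (SD, n = 3 each), and rose by 1.89 and 1.45 (edgeR adjusted p = 5.2e-06 and 6.76e-05). Of the 10 genes of amino acid synthesis, 2 rose after ATG (Asns and Mthfd2, of mitochondrial folate metabolism, at 1.11) and none fell; after saline Asns rose and Pck2, a mitochondrial carboxykinase, fell by 0.45, a call lost without the trio (-0.39, edgeR adjusted p = 0.247). Of 9 amino acid transporters, 6 rose after ATG and 2 after saline; without the heart-rich pair it was 6 and 3, and without the trio 6 and 2. Slc3a2, the shared heavy chain, rose by 0.80 and 0.77 and Slc1a5, a glutamine carrier, by 0.76 and 0.51, and Slc7a5, the light chain that brings in leucine, rose by 0.71 after ATG (edgeR adjusted p = 0.0128) and was at 0.53 after saline (edgeR adjusted p = 0.0634). Slc6a9, a glycine carrier, rose by 0.98 after ATG and did not pass after saline. Mthfd2 was at 0.46 after saline (edgeR adjusted p = 0.162). The median over the 9 transporters was 0.76 after ATG and 0.51 after saline. In the interaction 0 of 9 passed, as did 0 of all 15761 tested genes, so that count is not a result about the transporters.

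Counts for the steps around charging were low, as they were over all tested genes, of which 5.41% rose and 6.25% fell after ATG and 4.70% rose and 4.50% fell after saline. Of 8 cytosolic elongation factors, 1 rose after ATG (Eef2, the translocase, at 0.32) and 0 after saline (Eef2 at 0.29, edgeR adjusted p = 0.051). Without the heart-rich pair Eef2 was at 0.23 after ATG (edgeR adjusted p = 0.122) and rose by 0.32 after saline (edgeR adjusted p = 0.0287); without the trio it passed in neither, and Eef1a1, another elongation factor, was called lower in both. None of 12 mitochondrial translation factors passed after either injection, with unadjusted edgeR p-values under 0.05 for 2 after ATG and 0 after saline. Of all 15761 tested genes, 3961 and 3582 had such p-values. None of the 4 genes that amidate or formylate mitochondrial transfer RNA passed (0 and 0). Of 10 genes that process mitochondrial transfer and ribosomal RNA, 1 rose after ATG and 2 after saline. Lrpprc, which stabilises mitochondrial messengers, rose by 0.43 and 0.47, and Trmt10c, a subunit of mitochondrial RNase P, rose by 0.62 after saline; both calls after saline were lost without the trio (0.46 and 0.62; edgeR adjusted p = 0.0622 and 0.0864). Of 12 mitochondrial content genes, 2 rose after each injection, Atp5b by 0.42 and 0.42 and Uqcrc2 by 0.44 and 0.36 after ATG and saline. Both belong to oxidative metabolism, which heart muscle is rich in. The cardiomyocyte marker sums were 7169 CPM in ATG hyperoxia 2 and 3269 CPM in saline hyperoxia 2. What part heart muscle has in the Atp5b and Uqcrc2 values was not tested. Without the heart-rich pair Atp5b and Uqcrc2 rose after ATG (0.37 and 0.38), and Atp5b (0.33) and Cox4i1 rose after saline, where Uqcrc2 was at 0.32 (edgeR adjusted p = 0.0933); without the trio 2 rose after ATG and 0 after saline (Atp5b at 0.30 and Uqcrc2 at 0.43; edgeR adjusted p = 0.149 and 0.102).

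ATF4 is known to act with C/EBP partners on a composite element, TGATGNAA. It was searched on both strands (TTNCATCA on the other) in RefSeq windows of GRCm38.p6 from 250 bases before to 50 after each start. Windows were held for 13 cytosolic and 14 mitochondrial genes. The element was found for 5 of the 13 cytosolic genes (Aars, Gars, Iars, Tars and Yars) and 0 of the 14 mitochondrial genes, where 3.97% of 32851 windows hold it. The palindrome TGACGTCA was found for 0 of the 13 and 0 of the 14 genes, where 1.79% of windows hold it. The member counts are of genes with a match in any window, and the shares are of single windows. The 30 bases around a match in each of the 5 genes are shown because they are what the class comparison rests on, with the match in capitals, 5′ to 3′ on the gene's strand.
Aars, chr8:111033840-111033869, plus strand: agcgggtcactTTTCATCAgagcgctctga
Gars, chr6:55037960-55037989, plus strand: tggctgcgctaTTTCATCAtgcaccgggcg
Iars, chr13:49682126-49682155, plus strand: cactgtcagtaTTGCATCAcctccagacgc
Tars, chr15:11399655-11399684, minus strand: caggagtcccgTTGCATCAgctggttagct
Yars, chr4:129189895-129189924, plus strand: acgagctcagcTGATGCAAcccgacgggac

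Of the genes that passed in a hyperoxia comparison, Iars held a match, beginning at base 8 after the start. Sars, Eprs and Mars, the genes called after both injections, held none in their windows, and Nars had no window in the table. No match says only that these letters are not in the window. The 100 bases before the start that the promoter table uses are shown for these genes, since they are the members with calls in both comparisons; for Eprs, as for Aars and Yars above, that start lies inside the annotated span of the gene.
Sars, chr3:108445260-108445359, minus strand: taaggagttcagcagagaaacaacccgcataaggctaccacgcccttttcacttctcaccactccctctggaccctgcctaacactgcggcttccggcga
Eprs, chr1:185362944-185363043, plus strand: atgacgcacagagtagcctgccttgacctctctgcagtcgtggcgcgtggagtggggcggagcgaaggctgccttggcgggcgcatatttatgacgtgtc
Mars, chr10:127311787-127311886, minus strand: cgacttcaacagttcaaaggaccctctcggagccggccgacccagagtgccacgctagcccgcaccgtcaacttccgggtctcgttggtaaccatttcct
The genes with a match other than Iars did not pass in either comparison, although Aars passed over both injections together (0.24, edgeR adjusted p = 0.0227) and after ATG without the trio (0.36, edgeR adjusted p = 0.0458). Their log2 fold changes after ATG and saline were 0.27 and 0.21 for Aars, 0.02 and 0.16 for Gars, 0.03 and 0.04 for Tars, the threonyl enzyme, and 0.22 and 0.08 for Yars, the tyrosyl enzyme.

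Lars2 stood outside the range of its class. It lies on chromosome 9 (123366927 to 123462675) and had 8325, 10301 and 8224 CPM in ATG hyperoxia and 9676, 9506 and 8418 CPM in saline hyperoxia, against 9130, 11487 and 8929 CPM in ATG room air and 10972, 10015 and 8367 CPM in saline room air. It was number 3 in abundance of all genes and took 0.815% to 1.17% of the counts of a library. The groups overlapped, at -0.14 ± 0.12 after ATG and -0.09 ± 0.12 after saline (log2, SE; edgeR adjusted p = 0.524 and 0.718). Whether the level measures the messenger is uncertain and was not tested. Lars2 shares 29 windows of 40 bases (0.259% of its own) with the non-coding gene Gm47414 and 13 (0.116%) with Gm15564, both small shares. Across libraries it varied with RNAs that carry no poly(A) tail. Over 12 libraries its log2 CPM had a Pearson r of 0.741 with Rmrp, the RNA of RNase MRP (permutation p = 0.0067, adjusted 0.013), and a Spearman rho of 0.741 (permutation p = 0.008, adjusted 0.008). With Rpph1, the RNA of RNase P, r was 0.664 (permutation p = 0.021, adjusted 0.021) and rho 0.769 (permutation p = 0.0054, adjusted 0.008). These 2 relations were computed after seeing the data, and the adjustment covers these 2 only. How many other genes vary as closely with Lars2 is not given, so the p-values do not single out these RNAs. Without the 2 libraries farthest from the median of the non-coding RNA, r was 0.815 and 0.743 (10 libraries). Within the 6 hyperoxia libraries r was 0.779 with Rmrp and 0.887 with Rpph1, and within the 6 room air libraries 0.941 and 0.920. What sets the shared level was not tested.

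**Figure D5:**
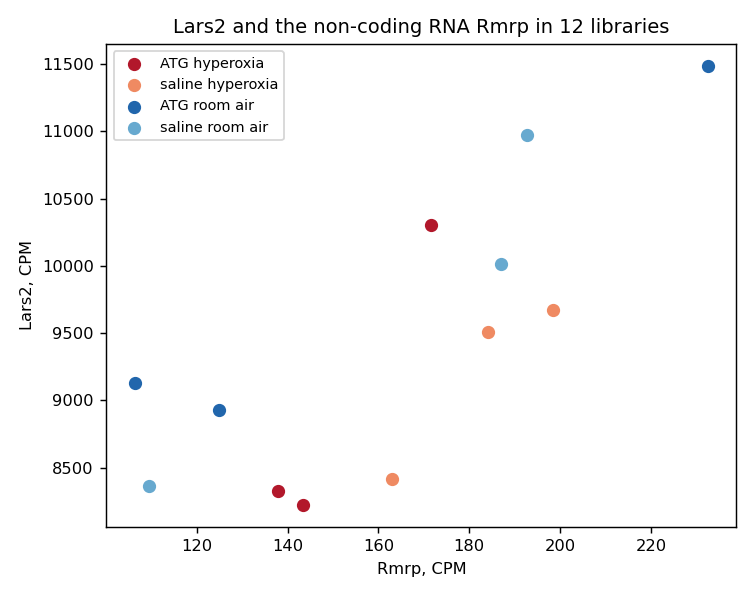
Lars2 against Rmrp in CPM, 1 point per library, coloured by group (axes do not start at 0). ATG room air 2 is highest in both, at 11487 CPM of Lars2 and 232.5 CPM of Rmrp, and libraries of all 4 groups are spread along the trend.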

How the data were processed

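Total RNA of newborn lung was amplified with the Ovation RNA-Seq System V2, made into Nextera XT libraries and read as paired 75-base reads, per the labels' protocols. The authors deposited, for each gene symbol, whole-number counts in 12 libraries, neither scaled nor pooled. The submitters' processing notes name Bowtie2, Cufflinks, DESeq and mm10, with no version; what counted the reads, with which strand setting and annotation, is not given in the sources used here. Columns were matched to samples by name.

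The 36 members, the gene lists and the tests were chosen with earlier results of these data known. Genes were kept by filterByExpr (minimum count 10, minimum total 15), scaled by TMM and fitted over all 12 libraries with 1 mean per group by edgeR 4.0.16 (R 4.3.3; 8 residual degrees of freedom; biological coefficient of variation 18.7%), with p-values two-sided and adjusted by Benjamini-Hochberg over 15761 genes. DESeq2 1.42.0, limma 3.58.1 and other settings were alternatives. The test was checked on simulated counts. CPM are TMM-scaled; log2 CPM use a prior count of 2. Intervals are at 95%. Replicates differed by a chi-square per degree of freedom of 6.27 to 37.2, so none was a repeat of another.

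Members named with every library's value were those past the threshold in a hyperoxia comparison, those past it for ATG (none) and Gars, Kars, Qars, Wars, Hars and Hars2; Sars2, Pars2 and Lars2 were added after their values were seen. Of each gene list up to 3 genes with the smallest adjusted p were named, plus Atf4, Asns, Aimp1, Aimp2, Eef1e1, Eif2ak4 and Slc7a5, with Ddit3 and Trib3 added. A gene of the mitochondrial content list and a promoter stretch are not reported here. Transcript lengths and shared 40-base stretches come from GENCODE M21 transcripts (GRCm38), the longest coding transcript giving the length; positions and promoter windows come from RefSeq GRCm38.p6, the assembly mm10 names. Correlations used 100000 permutations.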

Additional observations from a re-analysis of the deposited data

How the results depend on the processing

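Sars was called under every setting tried, at 0.83 to 1.02 after ATG and 0.70 to 0.83 after saline. Both ranges include the value averaged over injections, 0.83, which belongs to neither injection alone. Leaving out 1 library at a time gave 0.89 to 1.04 for Sars after ATG and 0.65 to 0.76 after saline. No named gene reversed past the threshold. The count of cytosolic genes called after ATG, 4, was 2 in the fit of only the 6 samples compared and 7 averaged over injections; after saline, 4, it was 2 without the 3 heart- or muscle-rich libraries (which leaves 1 saline hyperoxia sample) and 7 averaged over injections. The count of mitochondrial genes called after ATG, 0, was 1 by DESeq2, 1 by limma-voom, 2 without the 2 heart-rich libraries, 2 without the 3, and 4 averaged over injections; after saline, 0, it was 1 by DESeq2 and 4 averaged. The medians after saline were 0.14 (cytosolic) and 0.24 (mitochondrial) without the 3 libraries, and the mitochondrial median after ATG was 0.11 averaged over injections. The causes were not tested. Leaving out 1 library at a time gave cytosolic medians of 0.10 to 0.18 after ATG, 0.06 to 0.14 after saline and 0.03 to 0.09 for ATG in room air. The mitochondrial medians were 0.11 to 0.22 after ATG and -0.13 to -0.03 for ATG in room air. It gave 4 to 5 and 3 to 4 cytosolic calls after ATG and saline, and 0 to 2 and 0 to 1 mitochondrial calls; the 2 (Pars2 lower, Wars2 higher) came without ATG hyperoxia 2, the Aars2 call without ATG room air 1 and the Iars2 call without ATG room air 2.

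Over all genes, 740 rose and 709 fell after saline; this was 427 and 354 without the 3 libraries, 1741 and 1785 averaged over injections, and 410 and 330 without saline room air 3, 416 and 344 without saline hyperoxia 3, 465 and 424 without saline room air 2, and 531 and 424 without saline hyperoxia 1. After ATG, 853 rose and 985 fell, and 581 and 569 without ATG room air 3 or 555 and 597 without ATG room air 1. Without the 2 heart-rich libraries, 710 rose and 737 fell after ATG. With the replicate number as a block, 4 and 4 cytosolic and 0 and 0 mitochondrial genes were called, with 808 and 955 genes in all after ATG and 686 and 670 after saline; of 18 same-numbered pairs 2 had deviations correlated over 0.1, and 5 of 12 samples correlated best with their own number, so the numbers do not pair the samples. Counts were low for the mitochondrial genes, of which 14 of 16 averaged under 500 counts.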
